A study of Bos taurus with 252 samples.

Results

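The comparison is the change in whole-blood gene expression from day 0 to day 21 in steers given tildipirosin (TILD) against the same change in untreated negative controls (NC). It concerns the libraries of days 0 and 21 of 6 TILD and 6 NC steers, 24 of the 252 libraries of the series. The fit behind its tests also took in the other days of these steers, 72 libraries in all. Throughout, n counts steers. TILD steers received a single subcutaneous injection of tildipirosin in the neck after the day 0 blood draw, and NC steers received no antimicrobial. The other 5 groups, 6 steers each, received the macrolide tulathromycin (TULA), the cephalosporin ceftiofur (CEFT), the fluoroquinolone enrofloxacin (ENRO), the phenicol florfenicol (FLOR) or the tetracycline oxytetracycline (OXYT), and all 42 steers were sampled on day 0 and on 5 later days, from day 3 to day 56. All of them were crossbred steers at a research feedlot that had already been given tildipirosin, a trenbolone acetate and estradiol implant, antiparasitic drugs and respiratory vaccines when their backgrounding began, so NC steers were not free of earlier exposure to the drug. Each group had its own pen and NC steers were handled first on each sampling day after treatment, so treatment, pen and handling order cannot be told apart. No steer was treated for clinical disease during the trial.

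Tildipirosin is a long-acting macrolide given to groups of cattle at risk of bovine respiratory disease, a use called metaphylaxis. Macrolides bind the large subunit of the bacterial ribosome and block protein synthesis, and they accumulate in phagocytes and in lung tissue. RNA from whole blood is a mixture from lymphocytes, granulocytes, monocytes, platelets and immature erythroid cells, so fewer cells of a type and less RNA per cell cannot be told apart.

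Library totals on the 2 days ranged from 28.2 to 38.9 M counts in TILD and from 34.9 to 63.01 M in NC. Hemoglobin transcripts took a median of 0.0506% of a TILD library on day 0 and 1.19% on day 21, and 0.934% and 6.22% of an NC library. Their share was higher on day 21 than on day 0 in 6 of 6 TILD and 5 of 6 NC steers. The mean log2 change of the share was 1.72 larger in TILD (two-sided exact permutation test over steers, p = 0.255, smallest possible 0.00216). With hemoglobin genes removed from the counts, the comparison below called 3 genes, as with them. NC and TILD libraries came from different sequencing lanes, and all libraries of a steer shared a lane, so subtraction within a steer removes a lane effect that is constant over days. Defining markers of T cells (CD3D, CD3E, CD3G), B cells (MS4A1, CD79A), neutrophils (CXCR1, CXCR2) and monocytes (CD14, CSF1R) were all detected.

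Of 19056 genes tested, 3 were called for a different change in TILD than in NC (0.0157% of genes tested), at a Benjamini-Hochberg false discovery rate, FDR, of 0.1, and all 3 were lower in TILD. They were EVI2A, which encodes a membrane protein of blood cells, LIN52, a subunit of the MuvB complex that controls cell cycle genes, and ZNF260, a zinc finger protein. The test was edgeR's quasi-likelihood test with steer as a block, on the log2 scale, and levels below are CPM, counts scaled to a common library size. At an unadjusted p under 0.05 there were 3135 genes (16.5%), with 2028 lower (10.6%) and 1107 higher (5.81%) in TILD, where lower and higher compare the change in TILD with the change in NC. The balance of directions moved with the setting. At that p, 1558 of 2873 genes were lower after adjustment of the counts by lane with ComBat_seq. With libraries of days 0 and 21 alone 972 of 1715 were lower, and 0 genes passed FDR 0.1. Without the steer block 1255 of 1672 were lower, and again 0 genes passed. Widening the FDR to 0.11 took the count of called genes from 3 to 114, 100 of them lower in TILD. The count depended on single steers: without TILD steer 5 the count was 2647, without NC steer 1 it was 2528 and without TILD steer 3 it was 140. It was 3 without TILD steer 7, and 0 without TILD steers 2, 8 or 10 or without NC steers 5, 7, 12, 13 or 15, each left out alone. All NC steers and no TILD steer were on lane 1. The count was 0 with the 4 TILD steers of lane 2, 357 with the 2 of lane 3, and 3 after adjustment of the counts by lane with ComBat_seq, 2 of them among the 3 above.

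Both groups changed a great deal over the 21 days. In TILD steers, 4303 genes rose (22.6%) and 4719 fell (24.8%) between day 0 and day 21, 47.3% of genes tested, and in NC steers 2815 rose (14.8%) and 2599 fell (13.6%), 28.4% in all. Among the 2028 genes lower in TILD at an unadjusted p under 0.05, the median log2 change was -0.65 in TILD and -0.13 in NC. For the 1107 higher genes it was 0.54 in TILD and 0.14 in NC. These medians describe genes picked for the difference and are no test of it. Without NC steer 1 the NC change alone called 3386 genes, and with libraries of days 0 and 21 alone it called 3555.

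EVI2A had the largest difference of the 3. Its level in TILD steers went from 10.1 to 59.2 CPM on day 0 (median 23.7) to 2.11 to 10.6 CPM on day 21 (median 6.89). In NC steers it went from 7.80 to 23.7 CPM (median 21.2) to 23.2 to 53.4 CPM (median 29.7). All 6 TILD steers were lower on day 21 than on day 0, 5 of 6 NC steers were higher, and on day 21 no TILD steer reached the lowest NC steer. Expressed per steer, the TILD log2 changes were -3.82 (steer 8), -3.82 (steer 7), -2.84 (steer 10), -1.47 (steer 2), -0.31 (steer 3) and -0.28 (steer 5), so 2 steers hardly moved. The fitted change was -2.19 on the log2 scale in TILD and 0.98 in NC, a difference of -3.18 (SE 0.65, FDR 0.0886). In the fit of all 252 libraries EVI2A also fell in each of the 5 other treatments. Their fitted changes ran from -1.255 (OXYT) to -0.51 (ENRO), so NC was the group that rose. EVI2A lies within the NF1 gene in the RefSeq annotation, and the counting could divide reads between the pair, so its level is uncertain.

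LIN52 was lower on day 21 than on day 0 in all 6 TILD and in 3 of 6 NC steers. Its TILD level ran from 11.8 to 17.5 CPM on day 0 (median 14.1) and from 7.42 to 10.2 CPM on day 21 (median 8.46). In NC steers the ranges were 9.58 to 13.6 CPM (median 12.03) and 7.67 to 15.3 CPM (median 12.6). The changes of single steers did not overlap: the TILD steers lay between -1.23 and -0.54 on the log2 scale and the NC steers between -0.32 and 0.25. Such a separation of the 6 TILD below the 6 NC changes was found for 43 genes (0.226% of those tested), and TILD above NC for 19 (0.0997%). The fitted changes were -0.73 in TILD and 0.01 in NC, with a difference of -0.74 (SE 0.15, FDR 0.0886).

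ZNF260 was lower on day 21 in all 6 TILD steers too, from 3.84 to 8.05 CPM (median 5.82) on day 0 to 1.57 to 3.89 CPM (median 3.14) on day 21. Its NC level was 3.85 to 7.25 CPM (median 6.16) on day 0 and 3.38 to 9.58 CPM (median 6.84) on day 21. Here the steers overlapped, since NC steer 1 (-0.51) had a larger decline than TILD steers 3 (-0.37) and 5 (-0.27). The difference was -1.22 (SE 0.25, FDR 0.0886), from -0.99 in TILD and 0.23 in NC. In the fit of all libraries the 5 other treatments changed by -0.52 (FLOR) to 0.02 (ENRO). ZNF260 overlaps ZNF382 in the annotation, another zinc finger gene, and their reads may be hard to separate.

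**Figure D1:**
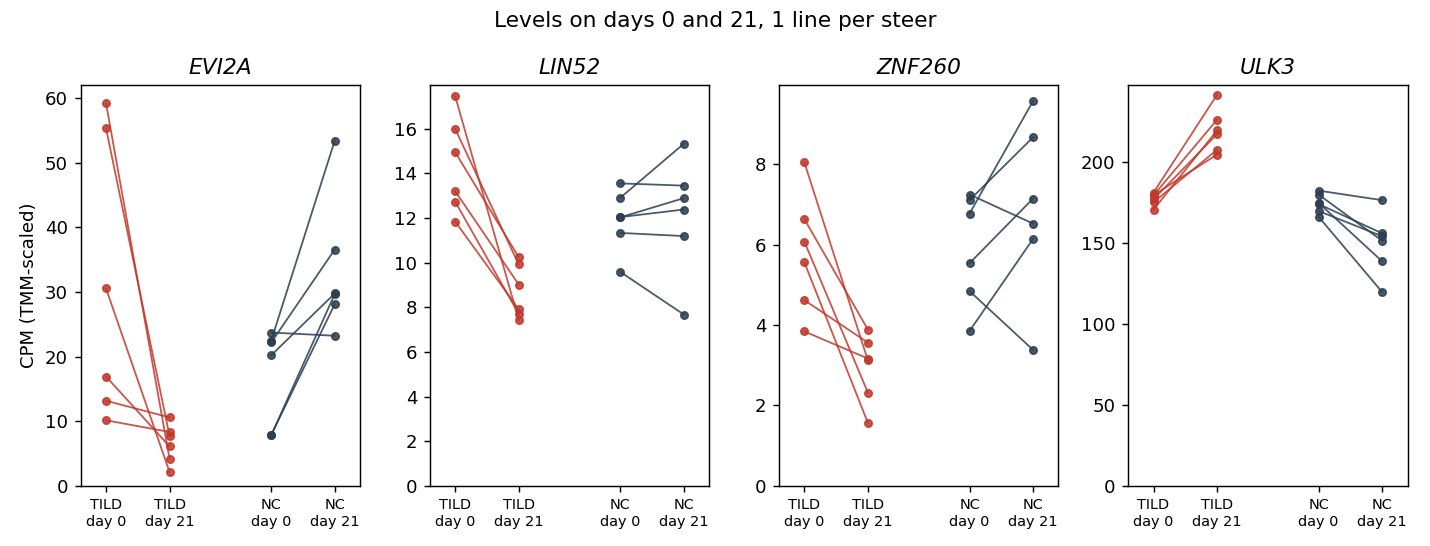
CPM scaled by TMM on days 0 and 21 (vertical axis, linear from 0) for EVI2A, LIN52, ZNF260 and ULK3, with 1 line per steer, TILD in red and NC in dark blue. EVI2A on day 21 separates the 6 TILD steers (2.11 to 10.6 CPM) from the 6 NC steers (23.2 to 53.4 CPM), and ULK3 rose in 6 TILD and was lower in 6 NC steers.

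The gene next in order of p was ULK3, a kinase of the family that starts autophagy, and it went the other way. Its TILD level was 171 to 181 CPM on day 0 and 205 to 242 CPM on day 21, while the NC level was 166 to 182 CPM and then 120 to 176 CPM. All 6 TILD steers were higher on day 21, all 6 NC steers were lower, and neither the changes nor the day 21 levels of the groups overlapped. Over all genes the day 21 levels of TILD lay wholly below those of NC for 104 (0.546%) and wholly above for 125 (0.656%), 1.2% in all. ULK3 rose by 0.31 in TILD (FDR 0.0015) and fell by 0.23 in NC (FDR 0.036), and the difference of 0.53 (SE 0.11) missed the threshold at FDR 0.103. NC steers were also apart from the 30 steers of the 5 other treatments for this gene (-0.405, FDR 0.0952), the 1 gene called in that comparison (0.00525% of genes tested), whereas TILD steers were not (0.13, FDR 0.443).

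Another 15 genes with a symbol, a mean of at least 1 CPM and the next smallest p did not pass, each at FDR 0.109. RASL10B, a small RAS-like GTPase, was higher in TILD, from a median of 11.8 to 19.7 CPM against 13.2 to 15.4 CPM in NC (difference 0.52, SE 0.12). The rest were lower. YPEL5, a subunit of a ubiquitin ligase complex, went from a median of 73.9 to 51.8 CPM in TILD and from 66.3 to 70.1 CPM in NC (difference -0.54, SE 0.12), and the changes of the steers did not overlap. TRAT1, an adaptor of the T cell receptor, went from 50.1 to 27.8 CPM against 51.4 to 48.96 CPM (difference -0.93, SE 0.22), again without overlap of the changes.

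SNX14, a sorting nexin, had a difference of -0.73 (SE 0.17) and its day 21 levels did not overlap, at 13.9 to 27.5 CPM in TILD and 28.5 to 44.7 CPM in NC. RABEP1, an effector of endosome fusion, differed by -0.46 (SE 0.11), and TSPAN13, a tetraspanin, by -0.68 (SE 0.16). Among signalling genes, RIT1, a RAS-related GTPase, differed by -0.65 (SE 0.16), MAP4K5, a kinase upstream of JNK, by -0.80 (SE 0.19) and IPMK, an inositol phosphate kinase, by -1.05 (SE 0.26). IPMK fell in both groups, with log2 changes of -1.65 in TILD (FDR 2.9e-09) and -0.60 in NC (FDR 0.013), and its day 21 level was the lower one in TILD. INSIG2, which holds back sterol synthesis, differed by -0.75 (SE 0.18) and HSD17B11, a steroid dehydrogenase, by -0.79 (SE 0.19).

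MEIS1, a homeobox factor of blood stem cells and platelet precursors, fell in TILD (-0.69, FDR 0.010) and rose in NC (0.64, FDR 0.029), and RAVER2, an RNA-binding protein, did likewise (-0.52, FDR 0.028, and 0.64, FDR 0.012). Both were low, with medians under 3 CPM in every group and day, and RAVER2 overlaps JAK1 in the annotation. ZNF570 differed by -1.29 (SE 0.31) and KIAA1468 by -0.44 (SE 0.11). Of these 19 genes, all 17 that were lower in TILD fell within the TILD steers at FDR 0.1, and 2 of the 17 fell in NC as well. Over all genes tested, 24.8% fell in TILD and 13.6% in NC. Among the 7 groups, NC had the highest change in 14 of the 19 genes, the 3 called ones included. TILD had the lowest in 17 of the 19. Over all genes tested NC was highest in 15.5% and TILD lowest in 23.8%. The 19 genes were chosen for the difference between the TILD and NC changes, so the counts are no test of it.

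**Figure D2:**
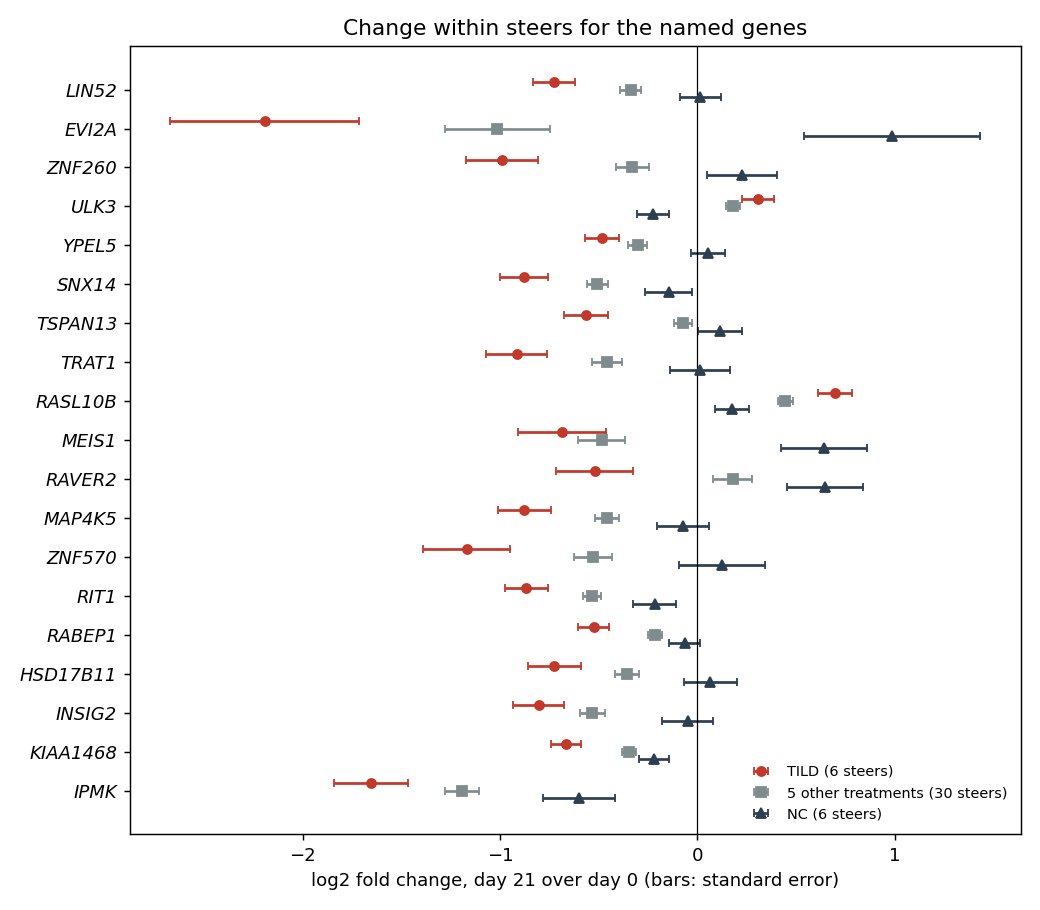
Fitted log2 fold change from day 0 to day 21 (horizontal axis) for the 19 genes, in TILD (red circles), NC (dark blue triangles) and the 5 other treatments together (grey squares, from the fit of all libraries), with bars of 1 standard error. EVI2A runs from -2.19 in TILD to 0.98 in NC. The grey squares lie between the other 2 groups in 19 of 19 genes, which were chosen for the gap between TILD and NC. Over all genes tested that share was 48.5%. For genes at an unadjusted p under 0.05 it was 93.2% (lower) and 88.5% (higher).

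PIK3CA, RAP1B and WWP1 are among the genes that the study displayed for TILD on day 21 under cytokine signalling, so they were chosen on these samples and are no independent evidence of a direction. None passed FDR 0.1 for the difference in change, and all 3 fell within TILD at FDR 0.1 while none did in NC.

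RAP1B, a GTPase of integrin-mediated adhesion, had a TILD median of 322 CPM on day 0 and 161 CPM on day 21, against 340 and 291 CPM in NC, a difference of -0.73 (SE 0.21, FDR 0.116). PIK3CA, a catalytic subunit of PI3K, went from 62.98 to 35.2 CPM in TILD and from 61.5 to 58.2 CPM in NC (-0.53, SE 0.19, FDR 0.165). In NC steers its changes were widely spread, from -1.10 in steer 1 to 0.31 in steer 15, and they covered the whole TILD range of -1.06 to -0.28. WWP1, a HECT ubiquitin ligase, went from 47.2 to 31.2 CPM against 50.6 to 47.8 CPM (-0.45, SE 0.14, FDR 0.134). NC steer 1 again stood apart, at -0.77 where the other 5 NC steers lay between -0.19 and 0.01.

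Within the PI3K, RAS and RAP signalling list, 11 of 34 genes were lower in TILD at an unadjusted p under 0.05 and 1 was higher, beside 10.6% and 5.81% of all genes tested, and none passed FDR 0.1. The median difference of the list was -0.24, against 0.01 over all genes. At FDR 0.1, 25 of the 34 fell within TILD from day 0 to day 21 and 4 rose, beside 24.8% and 22.6% of all genes, and within NC 15 fell and 3 rose, beside 13.6% and 14.8%. The number lower at an unadjusted p under 0.05 ranged from 2 to 15 over the other settings, and was 7 without NC steer 7.

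Cullin, HECT and SUMO enzymes attach or remove ubiquitin and its relatives. The counts of these lists and of the proteasome stand beside 10.6% lower and 5.81% higher of all genes. In the cullin ligase list 9 of 29 were lower and 1 higher at an unadjusted p under 0.05, with a median difference of -0.20. The number lower ran from 6 to 14 over the other settings, and was 14 without TILD steer 5. FBXO9, a substrate receptor, went from a median of 166 to 143 CPM in TILD and from 180 to 204 CPM in NC (-0.49, SE 0.14, FDR 0.117), and the steers' changes did not overlap. SKP1, the linker of the same ligases, differed by -0.71 (SE 0.21, FDR 0.130) and FBXO11 by -0.53 (SE 0.16, FDR 0.130). The HECT ligase list had 5 lower and 1 higher of 24, with UBE3A at -0.58 (SE 0.16, FDR 0.117) and HERC4 at -0.55 (SE 0.16, FDR 0.126). Its number lower ran from 2 to 9 over the other settings, and was 9 without NC steer 1. Of 20 SUMO pathway genes 4 were lower and 2 higher, with SENP6, a SUMO protease, at -0.71 (SE 0.18, FDR 0.109). Proteasome subunits were divided, 7 lower and 7 higher of 42, and with 1 steer left out the number higher ran from 2 (without TILD steer 7 or NC steer 13) to 14 (without NC steer 1) and the number lower from 2 (without TILD steer 8 or NC steer 15) to 10 (without TILD steer 5). Among them were PSMC6 (-0.93, SE 0.31, FDR 0.144) and PSMB6 (0.52, SE 0.16, FDR 0.134).

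Counts at an unadjusted p under 0.05 again stand beside 10.6% lower and 5.81% higher of all genes. RNA splicing factors had 15 of 52 on the lower side, with 2 higher and a median difference of -0.14. SF3B1, a core part of the splicing machinery, fell in both groups, from a median of 576 to 302 CPM in TILD and from 591 to 464 CPM in NC (-0.48, SE 0.15, FDR 0.134). SRSF2 went from 323 to 257 CPM in TILD and stood at 348 CPM on both days in NC (-0.30, SE 0.09, FDR 0.130). Heat shock proteins and chaperones had 7 lower and 0 higher of 31, a number that was 2 without TILD steer 8 or NC steer 15, 3 without TILD steer 7 and 4 without NC steer 7. Of the splicing list, 8 were lower without TILD steer 7 or 8, 9 without NC steer 15 and 23 without TILD steer 5.

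Sterol and fatty acid synthesis had 11 lower and 2 higher of 32 at that p, beside 10.6% and 5.81% of all genes. The number lower ran from 5 to 12 over the other settings. The list's median change was 0.27 in TILD and 0.30 in NC. SC5D, an enzyme late in cholesterol synthesis, fell in TILD from a median of 36.5 to 23.03 CPM and went from 38.7 to 41.6 CPM in NC (-0.82, SE 0.21, FDR 0.109). MSMO1, an earlier enzyme of the same route, had TILD medians of 35.1 and 37.8 CPM and rose in NC from 45.01 to 64.5 CPM (-0.55, SE 0.16, FDR 0.117).

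Of 34 cell cycle genes 6 were higher and 0 lower, beside 5.81% and 10.6% of all genes. The number higher was 2 without NC steer 13, NC steer 7 or TILD steer 7, 3 without TILD steer 10, and at most 9 with 1 steer left out. The list's median of 0.15 ran from -0.07 to 0.22 over the other settings. TK1, an enzyme that supplies thymidine for DNA synthesis, rose in TILD from a median of 53.1 to 85.8 CPM against 64.8 to 69.97 CPM in NC (0.47, SE 0.16, FDR 0.142). Nuclear genes of oxidative phosphorylation had 9 higher and 5 lower of 77, and genes of the mitochondrial ribosome 8 higher and 7 lower of 78. The higher counts moved with single steers, to 25 of oxidative phosphorylation and 25 of the mitochondrial ribosome without NC steer 1, to 17 and 18 without TILD steer 5, to 2 and 3 without TILD steer 7, to 2 and 4 without TILD steer 8, to 4 and 7 without TILD steer 2, to 3 and 6 without NC steer 13, and to 1 and 6 without NC steer 7. Over all genes, 1992 were higher without NC steer 1 and 2000 without TILD steer 5, in place of 1107. NDUFA9, a complex I subunit, was higher (0.30, SE 0.11, FDR 0.170) and UQCRB, a complex III subunit, lower (-0.71, SE 0.20, FDR 0.117). MRPL37 (0.32, SE 0.09, FDR 0.109) and MRPL1 (-1.13, SE 0.33, FDR 0.119) differed in opposite directions.

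For lists of inflammatory signalling the counts at that p follow. Beside 5.81% higher and 10.6% lower over all genes, Toll-like receptors and their adaptors had 1 higher and 0 lower of 24, T cell receptor signalling 1 and 1 of 27, inflammatory cytokines and chemokines 0 and 2 of 24, and interferon-stimulated genes 1 and 0 of 29. The interferon-stimulated list had a median difference of 0.44, which ran from 0.20 to 0.76 with 1 steer left out and was -0.05 on day 21 levels with no baseline. Without NC steer 1, 9 of its 29 genes were higher and 4 passed FDR 0.1, and 3 were higher without NC steer 12, 2 without TILD steer 7, and 0 without TILD steers 8 or 10 or NC steers 5, 7, 13 or 15. Toll-like receptors and their adaptors had 4 higher without NC steer 1 or TILD steer 5, and T cell receptor signalling had 4 higher and 7 lower without NC steer 1, and 4 and 6 without TILD steer 5. JAK and STAT signalling had 1 higher and 4 lower of 31. NF-kB signalling was mixed, with 3 higher and 5 lower of 27, and the number higher was 9 without TILD steer 5, 6 without NC steer 1, 1 without NC steers 5, 7, 12 or 13 and 0 without TILD steers 2, 7 or 8 or NC steer 15. The lower ones included the kinases CHUK (-0.50, SE 0.17, FDR 0.142) and MAP3K7 (-0.46, SE 0.16, FDR 0.162) and the adaptor TAB2 (-0.39, SE 0.14, FDR 0.162). All 3 fell in TILD at FDR 0.1, and CHUK and TAB2 fell in NC too. Cytosolic ribosomal proteins, at 1 higher and 3 lower of 80, and lysosomal genes, at 0 and 3 of 50, were below the shares of the whole table. Without NC steer 1 these counts were 8 and 7 for ribosomal proteins and 8 and 3 for lysosomal genes.

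For the remaining lists, counts at an unadjusted p under 0.05 are given as higher and then lower, beside 5.81% and 10.6% of all genes. They were 2 and 5 of 34 autophagy genes, 2 and 3 of 18 circadian clock genes, 0 and 2 of 17 glucocorticoid-responsive genes, 1 and 2 of 21 genes of the integrated stress response, 0 and 0 of 23 immediate early genes, 2 and 1 of 17 genes of class I antigen presentation, 3 and 1 of 13 of class II, and 1 and 0 of 13 genes encoded by mitochondrial DNA. Such small counts also moved with single steers, as for autophagy genes, at 7 and 8 without NC steer 1 and 0 and 0 without TILD steer 8. Among them CLOCK (-0.49, SE 0.15, FDR 0.130) and its partner ARNTL (-0.36, SE 0.11, FDR 0.137) were lower, and the groups were sampled in a fixed order of the day, whose part was not tested. NR3C1, the glucocorticoid receptor, was lower as well (-0.49, SE 0.16, FDR 0.142) and fell in both groups.

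**Figure D3:**
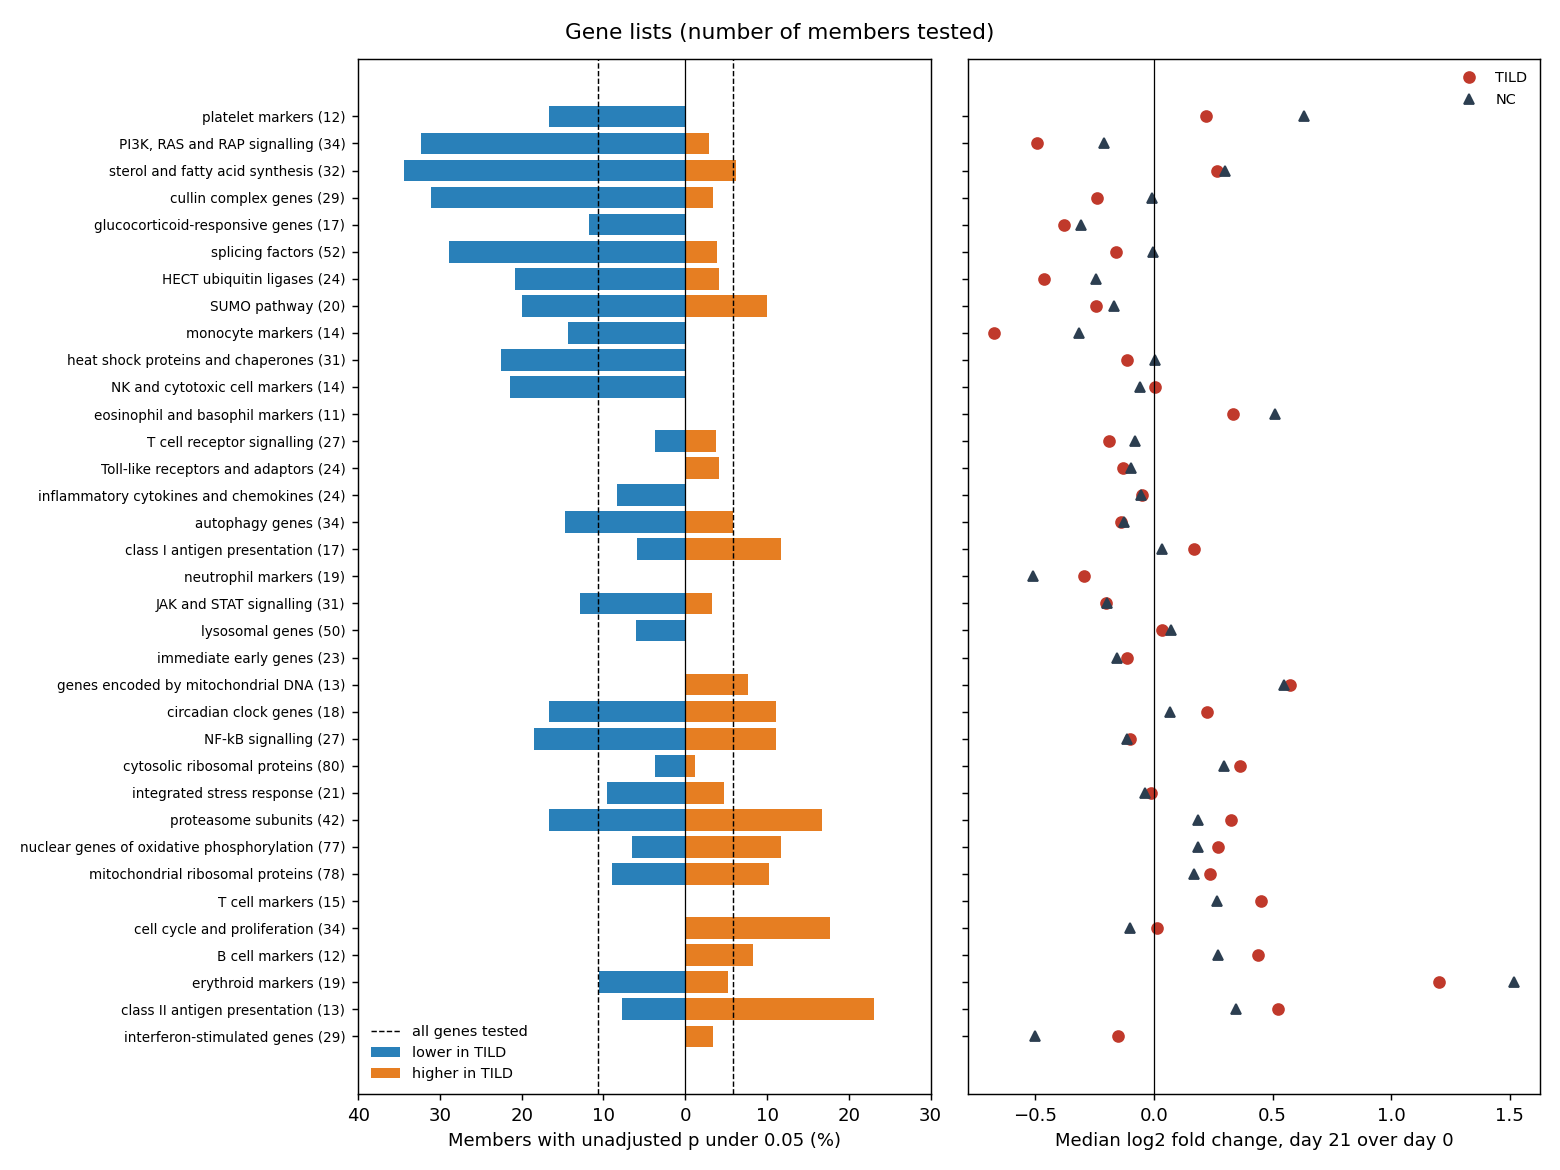
Left, percent of each list's tested members with an unadjusted p under 0.05, lower in TILD (left of 0) or higher (right of 0), with dashed lines at the shares of all genes tested (10.6% and 5.81%). Right, median log2 fold change from day 0 to day 21 in TILD (circles) and NC (triangles). The lists are ordered by their median difference, and for PI3K, RAS and RAP signalling 11 of 34 members lie on the lower side.

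Counts of blood cell type markers at an unadjusted p under 0.05 stand beside 5.81% higher and 10.6% lower of all genes. T cell markers had 0 of 15 and neutrophil markers 0 of 19 members at that p, as had 0 of 9 gamma delta WC1 and 0 of 11 eosinophil and basophil markers. Their summed levels on day 21 were 3480 to 5960 CPM in TILD and 3050 to 4860 CPM in NC for T cells, and 3200 to 7590 and 2310 to 5700 CPM for neutrophils. B cell markers had 1 higher of 12 (CD79A, 0.41, SE 0.18, FDR 0.231), monocyte markers 2 lower of 14 and platelet markers 2 lower of 12 (ITGB3, -0.81, SE 0.28, FDR 0.148, and SELP, -0.69, SE 0.33, FDR 0.286), counts of 1 or 2 genes that do not set these lists apart from all genes. With 1 steer left out, the count of T cell markers reached 3 higher (without NC steer 13 or TILD steer 5), and that of platelet markers 4 lower (without TILD steer 7). The median change of the platelet list was 0.63 in NC and 0.22 in TILD. Whether a change in cell makeup took part in any of these differences was not tested.

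Cytotoxic and plasma cell markers were lower for single genes. KLRD1, an NK receptor subunit, fell in both groups, from a median of 58.3 to 20.04 CPM in TILD and from 36.98 to 25.6 CPM in NC (-0.80, SE 0.31, FDR 0.202), and NCR1, the NK receptor NKp46, differed by -0.44 (SE 0.18, FDR 0.205). Of 14 NK and cytotoxic markers 3 were lower and 0 higher at an unadjusted p under 0.05, beside 10.6% and 5.81% of all genes. The number lower was 0 without NC steer 15 and 1 without NC steer 7. JCHAIN, the joining chain of secreted antibody, went from a median of 580 CPM (194 to 835) to 130 CPM (49.1 to 421) in TILD and from 187 CPM (65.97 to 626) to 290 CPM (60.2 to 377) in NC (-1.78, SE 0.50, FDR 0.116). Per steer its log2 changes ran from -3.16 to -0.92 in TILD and from -1.61 to 1.89 in NC. Despite the NC medians, the fitted NC change was -0.10, against -1.89 in TILD, in the fit of all libraries. JCHAIN was the 1 plasma cell marker of 8 at that p. Erythroid markers had 1 higher and 2 lower of 19, and BPGM was among the lower (-0.56, SE 0.21, FDR 0.180). The list's median difference was 0.25, opposite in sign to BPGM, and it ran from -1.49 to 0.38 over the other settings. The summed level of erythroid markers went in TILD from a median of 645 to 13200 CPM and in NC from 8980 to 67600 CPM.

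On the other sampling days the difference from NC called 0 genes on day 3 (1551 or 8.14% at an unadjusted p under 0.05), 0 on day 7 (1410 or 7.4%), 7 on day 14, all lower in TILD (0.0367% called, 1589 or 8.34% at that p), and 0 on day 56 (559 or 2.93%). LIN52 differed by -0.19 on day 3, -0.12 on day 7 and -0.18 on day 14, reached -0.74 on day 21 and was at -0.34 on day 56. EVI2A was at -0.85, -0.94 and -1.10 on days 3, 7 and 14 and at -0.91 on day 56, with FDR values of 0.669 or above. Because day 0 is subtracted on every day, these values share the same baseline libraries. ULK3 differed by 0.04, 0.15 and 0.04 on days 3, 7 and 14, by 0.53 on day 21 and by -0.07 on day 56.

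**Figure D4:**
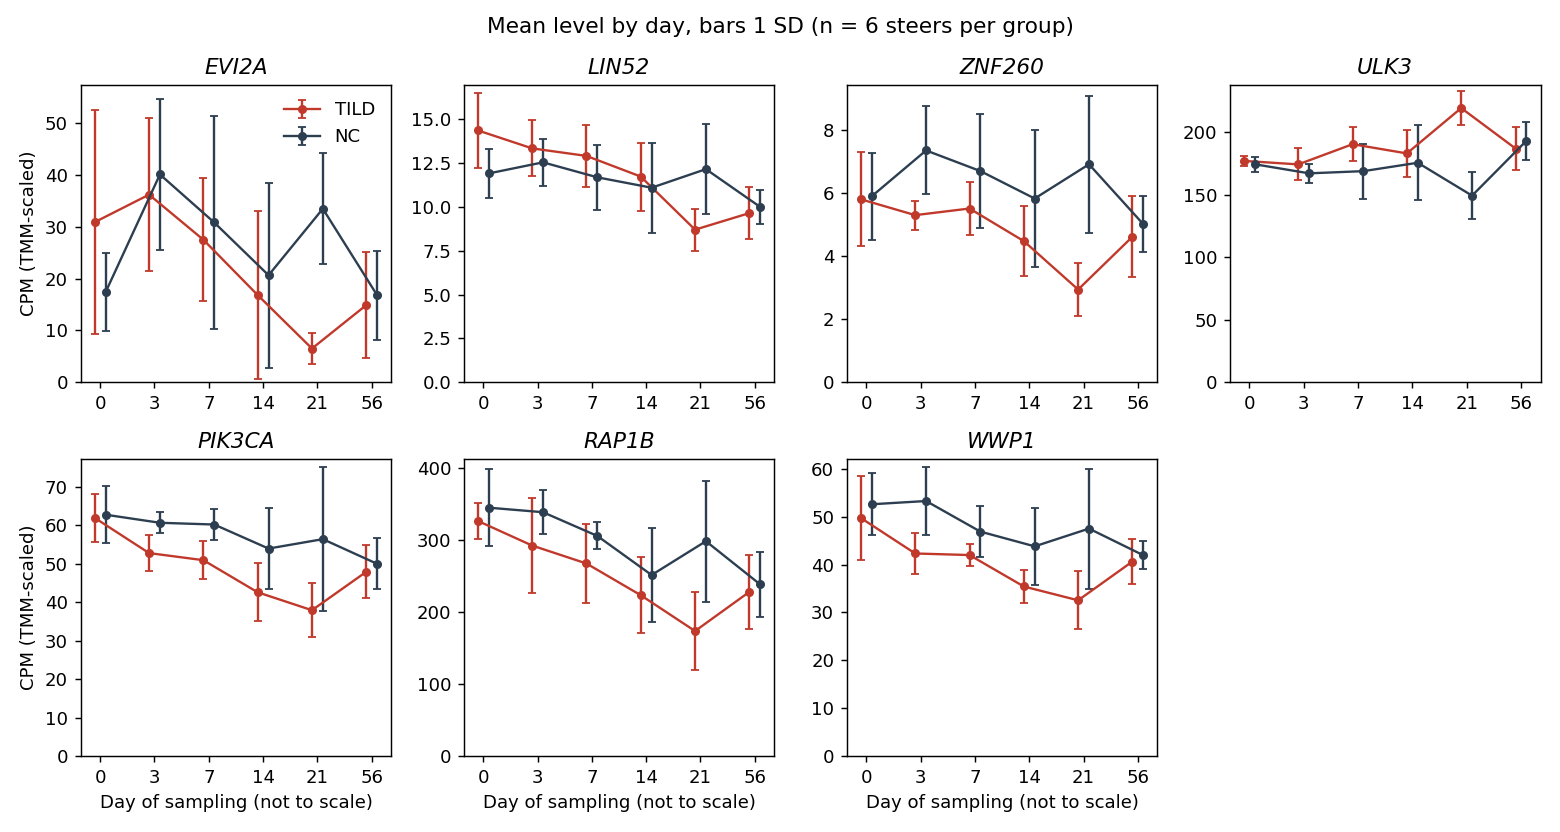
Mean CPM (vertical axis, linear from 0) with bars of 1 SD over 6 steers on the 6 sampling days (spaced evenly, not to scale), TILD in red and NC in dark blue, for the 3 genes called, ULK3, PIK3CA, RAP1B and WWP1. LIN52 in TILD declines from 14.4 CPM on day 0 to 8.70 CPM on day 21, and on day 21 EVI2A is at 6.50 CPM in TILD and 33.5 CPM in NC.

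On day 21 the change in TILD was also set against the mean change in the 30 steers of the 5 other treatments. NC changes are not part of that contrast, although NC libraries entered the fit of all 252 libraries and so its dispersions. This called 90 genes (0.472% of genes tested), 24 higher (0.126%) and 66 lower (0.346%) in TILD, of 3502 (18.4%) at an unadjusted p under 0.05. With DESeq2 size factors in place of TMM it called 312, 213 of them higher and 99 lower, so the balance of directions depends on the scaling. With libraries of days 0 and 21 alone it called 0, of 2720 at an unadjusted p under 0.05. In that smaller fit it called 1801 without TILD steer 5, 1 without TILD steer 3 or 10, and 0 without TILD steers 2, 7 or 8.

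WWP1 had the smallest p of that comparison (-0.48, SE 0.11, FDR 0.0475). WWP1 fell by 0.61 in TILD, while the fitted changes of the other treatments lay between -0.31 (CEFT) and 0.15 (ENRO). ZSCAN21, ZEB1, ENTPD5 and PHF11 followed it and were picked for their p after their values were seen. ZEB1, a repressor that acts in T cells, had TILD levels of 15.02 to 18.2 CPM on day 0 and 5.96 to 11.1 CPM on day 21, and differed by -0.66 (SE 0.15, FDR 0.0475). Its fitted change was -1.24 in TILD, -0.52 in NC and between -0.78 (TULA) and -0.34 (ENRO) in the others.

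ZSCAN21, a zinc finger factor, went in TILD from a median of 85.9 CPM to 40.1 CPM, and differed by -0.86 (SE 0.19, FDR 0.0475) from a mean of the others that was -0.10. The lowest NC steer was at 38.4 CPM on day 21, within the TILD range of 36.3 to 70 CPM. ENTPD5, a nucleotidase of the endoplasmic reticulum, differed by -0.55 (SE 0.12, FDR 0.0475), with TILD medians of 9.17 and 5.67 CPM. PHF11, a regulator of cytokine transcription in T cells, was higher by 2.25 (SE 0.51, FDR 0.0475). All 6 TILD and all 6 NC steers were higher on day 21 for PHF11, from a median of 5.71 to 21.4 CPM and from 6.25 to 12.9 CPM, and OXYT was the treatment nearest to TILD with a fitted change of 1.03. Of the 19 genes above, TSPAN13 (-0.49, FDR 0.0475) and KIAA1468 (-0.32, FDR 0.0995) passed as well, while EVI2A (-1.18, FDR 0.327), LIN52 (-0.39, FDR 0.12) and ZNF260 (-0.66, FDR 0.105) did not. Besides WWP1, 4 members of the gene lists passed, and 3 of these 4 were named only after their values were seen. NDUFA9 (0.30, FDR 0.0916) and UQCRC1 (0.36, FDR 0.0995), a core subunit of complex III, belong to oxidative phosphorylation and were higher, as was MRPS12 (0.36, FDR 0.0995), a protein of the mitochondrial ribosome. SENP7, a SUMO protease, was lower (-2.71, FDR 0.0995), and it overlaps PCNP and TRMT10C in the annotation, so its reads may be hard to separate.

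Tulathromycin is the other macrolide of the series, given at a different dose, so its values are only set beside those of tildipirosin. Against NC, the TULA change on day 21 called 1 gene (0.00525% of genes tested), of 2374 (12.5%) at an unadjusted p under 0.05. Its difference from NC was -1.99 for EVI2A (FDR 0.295), -0.46 for LIN52 (FDR 0.240), -0.73 for ZNF260 (FDR 0.228) and 0.32 for ULK3 (FDR 0.215). The comparisons of CEFT, ENRO, FLOR and OXYT with NC called 0 genes each, with 2010 (10.5%), 1213 (6.37%), 1483 (7.78%) and 1190 (6.24%) at an unadjusted p under 0.05. All of these comparisons share the same 6 NC steers.

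**Figure D5:**
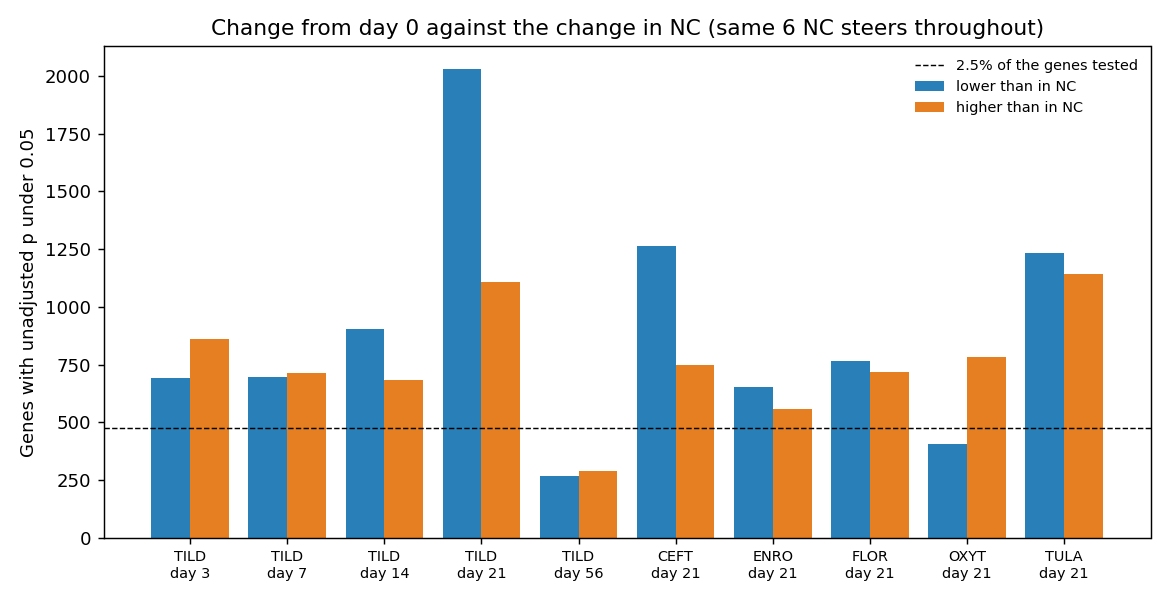
Number of genes (vertical axis) with an unadjusted p under 0.05 for a change from day 0 that differs from the change in NC, lower or higher, for TILD on 5 days and the other treatments on day 21, with a dashed line at 2.5% of the genes tested. TILD on day 21 has 2028 lower and 1107 higher genes, and all bars share the same 6 NC steers.

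Steers differed in how far they followed their group. Over all genes tested, the change of TILD steer 5 had a Pearson correlation of 0.20 with the mean change of the other TILD steers and 0.29 with the mean change of NC steers, and TILD steer 8 had 0.49 and 0.39. NC steer 1 had 0.34 with the other NC steers and 0.51 with the TILD mean. These correlations are across genes, which are not independent replicates, and carry no test. For PIK3CA, RAP1B, WWP1 and the 3 called genes, TILD steer 5 had the smallest decline of the 6 TILD steers in all 6 on the scaling of the TILD and NC libraries. On the scaling of all 252 libraries, PIK3CA is the exception, where steer 3 (-0.27) lay just above steer 5 (-0.28).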

How the data were processed

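Whole blood was drawn into RNA-preserving tubes, and stranded mRNA libraries were sequenced from 6 steers per group and day. Per the submitters' processing notes, which give the versions used here, reads were checked with FastQC (0.11.9), trimmed with Trimmomatic (0.39), aligned to ARS-UCD1.3 with HISAT2 (2.1.1) and assembled with StringTie (2.2.0); the study's methods give another HISAT2 version. The annotation release is not given in the sources used here. The deposited values are raw counts per gene, which the authors derived from StringTie's transcript coverage, so reads of overlapping genes may be divided between them. They are not corrected for lane.

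Genes had to exceed 0.2 CPM in 12 or more of the 252 libraries, which left 19056 of 33282. Counts were scaled by TMM in edgeR (4.0.16, R 4.3.3) and fitted by quasi-likelihood with steer as a block, day and treatment by day, on all 72 TILD and NC libraries of 6 days (50 residual degrees of freedom), with a Benjamini-Hochberg FDR of 0.1. CPM per steer are TMM-scaled, and log2 changes per steer add a prior count of 2. Comparisons with the 5 other treatments used all 252 libraries in a second fit, with the dispersion trend taken from every 10th gene, and the levels of ZSCAN21, ZEB1, ENTPD5 and PHF11 carry that fit's scaling. Single values per steer were compared by exact permutation.

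All days of a steer come from the same animal, which is the pairing behind the block. Over genes, deviations from the mean of each group and day had a median correlation of 0.356 for libraries of the same steer, and 12 of 12 steers exceeded 0.1. For different steers of a group it was -0.086, but subtracting that mean itself makes this value negative, so it is no independent contrast. Named genes are those past FDR 0.1, then those of smallest p up to 20, the 3 of smallest p in each gene list (a selection of these is printed) and genes the study displayed. A few genes the rule names are not reported here. The comparison, its members and the lists were chosen with earlier results of these data known. On simulated counts for the comparison of TILD with NC over 19056 genes, 34.8% of changes of 0.5, 67.2% of changes of 1 and 94% of changes of 2 (log2) were recovered, with 15 false among 146 calls. The simulated libraries varied independently, and 4.99% of unchanged genes had an unadjusted p under 0.05. In the real counts 16.5% of all genes did, and calls moved with single steers, so these rates may not hold there. Symbols and overlapping genes were looked up in RefSeq's ARS-UCD2.0 table, where 66 of 67 genes matched. Overlaps there also include PIK3CA with KCNMB3, SRSF2 with METTL23, FBXO11 with MSH6 and ENTPD5 with COQ6. Their reads may be divided in the same way. Each group had 1 pen, so no p-value measures the spread between pens. With steer as a block, p-values of the fits measure the spread of libraries within steers over the 6 days. Alternatives used limma (3.58.1), DESeq2 (1.42.0), ComBat_seq in sva (3.50.0), other filters and scalings, and each steer left out.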

Additional observations from a re-analysis of the deposited data

Results flagged for a closer look

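Among 140 groups of 6 log2 changes examined, 11 had a single steer farther from the rest than Dixon's 95% limit allows, where chance alone gives about 5%. NC steer 1 was that steer for WWP1 (-0.767), HERC4 (-1.1), NDUFA9 (0.777), SF3B1 (-0.883), ZEB1 (-1.69) and SENP7 (-5.14). TILD steer 8 stood apart for LIN52 (-1.23) and for ATP6V1A, a proton pump subunit (-1.3). TILD steer 5 stood apart for WWP1 (-0.272), TILD steer 10 for ZSCAN21 (-0.24) and NC steer 5 for BPGM (1.18).

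Some changes differed between the treatments by a test of the difference itself, in edgeR's quasi-likelihood fit of all libraries. NC differed from the mean of the 5 other treatments for ULK3 (-0.405). TILD differed from that mean for TSPAN13 (-0.488), KIAA1468 (-0.317), WWP1 (-0.484), NDUFA9 (0.305), UQCRC1 (0.359), MRPS12 (0.359), SENP7 (-2.71), ZSCAN21 (-0.856), ZEB1 (-0.664), ENTPD5 (-0.548) and PHF11 (2.25), all on the log2 scale and past FDR 0.1. The last 7 were named for their p after their values were seen.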

How the results depend on the processing

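The count of 3 genes for TILD against NC was 0 with the 24 libraries of days 0 and 21 alone (1715 genes at an unadjusted p under 0.05), 0 with no filter on low counts (3315), 5 with CPM above 1, 112 with limma voom, 76 with DESeq2, 166 with a likelihood ratio test, 18 for day 21 levels with no baseline, 617 with all libraries in 1 fit, 0 with the 4 TILD steers of lane 2 (1495) and 357 with the 2 of lane 3. DESeq2 size factors gave 4, and ComBat_seq, a robust fit and removal of hemoglobin genes gave 3 each. Leaving out 1 steer gave 0 to 2647 genes, 7774 to 9354 for the change within TILD and 3386 to 5627 within NC. Without the replicate block the comparison of TILD with NC called 0 genes (1672 at an unadjusted p under 0.05), the change within NC called 2359 in place of 5414, and in fits of 84 libraries both comparisons with the 5 other treatments called 0 (1417 for TILD and 711 for NC). The NC change with 24 libraries called 3555. TILD against the 5 others, 90 genes, gave 312 with size factors, 787 with CPM above 1 (517 higher and 270 lower), 0 with 84 libraries, and 0 to 1801 with 1 TILD steer left out of these. NC against the 5 others, 1 gene, gave 4 with CPM above 1, and 0 to 2 with 1 NC steer left out. NCR1 (0.155) and KLRF1 (0.422) turned positive on day 21 levels alone, which use no baseline. Of 1809 results for the 67 named genes in other settings, 1516 kept direction and side of the threshold, 250 newly passed, 41 no longer passed and 2 changed sign. Except where the construction shows it (fewer steers or libraries, other genes tested), the cause was not tested. Genes at a few CPM, such as MEIS1 and RAVER2, rest on the fewest reads.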
